A study of Capra hircus with 10 samples.

Results

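The mevalonate pathway was followed through 7 of its enzymes in the ovary of the goat (Capra hircus) at 2 stages of the estrous cycle. The genes were ACAT2, HMGCS1, MVK, PMVK, MVD, FDPS and GGPS1, chosen as named enzymes of the pathway, with earlier results of these data known. They were found as the protein-coding rows of the transcript table that carry these symbols. All 7 genes were present among 20587 protein-coding gene symbols, with 14 of 43766 protein-coding transcripts between them. The gene identifiers in the table were 102171980 (ACAT2), 102176561 (HMGCS1), 102176815 (MVK), 102172312 (PMVK), 102169040 (MVD), 102186540 (FDPS) and 102169552 (GGPS1). Whole ovaries of Anhui white goats were collected at a slaughterhouse, 5 of them luteal and 5 follicular, and each gave 1 RNA sequencing library. No treatment or engineered allele was involved, and an age was not given in the sources used here. In the luteal phase the ovary carries a corpus luteum, the progesterone-secreting gland formed from an ovulated follicle, whereas in the follicular phase growing follicles dominate. How the phase of an ovary was assigned, and whether the 5 ovaries of a phase came from separate goats, was not given in the sources used here, so the p-values measure only the spread between these ovaries, which may be technical.

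The mevalonate pathway builds isoprenoids from acetyl-CoA. Acetyl-CoA units are joined to HMG-CoA, HMG-CoA is reduced to mevalonate, and mevalonate is phosphorylated and decarboxylated to isopentenyl diphosphate, which prenyltransferases join to farnesyl diphosphate and geranylgeranyl diphosphate. Farnesyl diphosphate is the branch point at which the route to squalene and cholesterol leaves the routes to dolichol, ubiquinone and prenylated proteins. The corpus luteum uses cholesterol, taken up from lipoproteins or made in the cell, as the substrate of progesterone, and the genes of cholesterol synthesis are textbook targets of the sterol-sensing transcription factor SREBP2.

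Levels are given as FPKM, a fragment count corrected for transcript length and for library size, and were added up over the transcripts of each gene. Fold changes are luteal minus follicular differences of log2(FPKM + 0.1), with two-sided p-values from limma. Benjamini-Hochberg adjustment ran over the 15359 genes that reached 0.1 FPKM in 5 or more ovaries, and a gene counted as changed at an adjusted p under 0.05. All 7 genes passed this filter in every ovary. Of all genes tested, 15.9% were higher and 27.8% were lower in the luteal phase, 43.7% together, and the median log2 fold change was -0.14. The share of the calls that were higher in the luteal phase was 36.3%, which moved to 48.8% when all ovaries were given the same median, to 41.8% with quantile normalization and to 52.1% on a TPM scale. The read depth per ovary is unknown. The summed FPKM of all transcripts was 452508 to 503276 per luteal ovary and 492324 to 540124 per follicular ovary.

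The labels were checked against markers of the cell types a whole ovary can hold. All 6 corpus luteum markers in the table were higher in the luteal phase, with a summed level of 4918 to 6754 FPKM against 131 to 182 FPKM, and STAR (2651 ± 507 FPKM, SD, n = 5) and CYP11A1 (2495 ± 262 FPKM) had the highest luteal means, whose ranges overlapped. Of the 9 granulosa cell markers 5 were lower and 4 were not called (175 to 775 FPKM in the luteal phase, 318 to 1334 FPKM in the follicular phase). Both theca cell markers were lower (17.1 to 69.2 against 139 to 202 FPKM), as were 5 of 8 tested oocyte markers (8.41 to 19.8 against 16.4 to 46.8 FPKM). Of the 8 endothelial markers 7 were higher (221 to 280 against 113 to 137 FPKM), and 3 of 7 stromal markers were higher and 1 lower (3376 to 5659 against 2640 to 3747 FPKM). Leukocyte markers summed to 75.2 to 94.7 FPKM and to 43.4 to 87.0 FPKM, with 1 of 6 called higher. Red blood cell markers stayed at or below 0.758 FPKM in every ovary, where ALAS2 was listed at 0 in 6 of 10 ovaries, and hepatocyte markers at or below 9.68 FPKM, where ALB was listed at 0 in 2 of 10 ovaries. In these bulk samples more cells of a type and more RNA per cell cannot be told apart, and the part of cell makeup in the differences below was not tested.

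Of the 7 enzyme genes 6 were higher in the luteal phase and the last, GGPS1, was not called. The rise ran from 2.86-fold for MVK to 9.72-fold for HMGCS1 as a ratio of mean FPKM, and every luteal ovary was above every follicular ovary for each of the 6, against 11.2% of all genes tested that were higher in the luteal phase without overlap. The summed level of the 7 genes was 1153, 1274, 672, 1301 and 1211 FPKM in luteal ovaries 1 to 5 and 176, 192, 139, 184 and 148 FPKM in follicular ovaries 1 to 5. The lowest luteal ovary was thus above every follicular ovary, and the means of 1122 ± 258 and 168 ± 22.8 FPKM (SD, n = 5 each) stood 6.69-fold apart. These 7 genes held 0.143 to 0.268% of the summed FPKM of a luteal ovary and 0.0279 to 0.0357% of that of a follicular ovary.

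ACAT2, the cytosolic thiolase that joins acetyl-CoA units to acetoacetyl-CoA, had an FPKM of 152, 166, 65.1, 153 and 127 in luteal ovaries 1 to 5 and of 25.4, 27.5, 20.3, 27.8 and 25.0 in follicular ovaries 1 to 5. Every luteal ovary was above every follicular ovary, and luteal ovary 3 was set well below the other luteal ovaries. The means were 133 ± 40.2 and 25.2 ± 3.00 FPKM, a log2 fold change of 2.33 (SE 0.22, 95% interval 1.84 to 2.81, limma adjusted p = 1.88e-05). In the goat RefSeq annotation (assembly ARS1.2) ACAT2 overlaps the chaperonin gene TCP1. The libraries were strand-specific, but whether the quantification used strand was not given in the sources used here, so reads could be shared between these genes.

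HMGCS1, the cytosolic HMG-CoA synthase, was the most abundant of the 7 in every ovary and the one with the largest fold change. It stood at 671, 738, 407, 781 and 754 FPKM in the luteal ovaries and at 72.1, 82.0, 53.0, 79.3 and 58.5 FPKM in the follicular ovaries. The lowest luteal value was again that of ovary 3, and it was far above the highest follicular value. The means of 670.3 ± 153 and 69.0 ± 12.7 FPKM gave a log2 fold change of 3.26 (SE 0.19, 95% interval 2.85 to 3.67, limma adjusted p = 3.88e-07). Only 82 of the 15359 genes tested had a higher log2 fold change.

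The next enzymes, MVK, PMVK and MVD, carry mevalonate to isopentenyl diphosphate. MVK, the mevalonate kinase, had 20.7, 27.8, 10.5, 25.5 and 23.0 FPKM in the luteal ovaries and 8.31, 9.02, 6.41, 8.07 and 5.72 FPKM in the follicular ovaries. Its phases did not overlap, but luteal ovary 3 came close to the highest follicular ovary. This was the smallest of the 6 rises, with means of 21.5 ± 6.72 and 7.51 ± 1.38 FPKM and a log2 fold change of 1.45 (SE 0.24, 95% interval 0.93 to 1.97, limma adjusted p = 0.000735), and 506 of the genes tested had a higher one.

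PMVK, the phosphomevalonate kinase, was the least abundant member in the follicular phase, with 3.37, 3.74, 3.43, 2.95 and 3.62 FPKM. In the luteal ovaries it had 18.0, 16.1, 10.5, 24.8 and 25.9 FPKM, all of them above the follicular ovaries. The luteal ovaries were spread over a wide range, while the follicular ovaries lay close together. The means were 19.0 ± 6.38 and 3.43 ± 0.302 FPKM and the log2 fold change was 2.37 (SE 0.21, 95% interval 1.91 to 2.84, limma adjusted p = 1.17e-05).

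MVD, the decarboxylase that yields isopentenyl diphosphate, stood at 81.7, 77.2, 32.5, 81.0 and 75.9 FPKM in the luteal ovaries and at 13.3, 16.7, 11.0, 15.1 and 11.5 FPKM in the follicular ovaries. All luteal ovaries but ovary 3 lay within a narrow band, and ovary 3 lay far below it, though still above every follicular ovary. The means of 69.6 ± 20.9 and 13.5 ± 2.40 FPKM gave a log2 fold change of 2.30 (SE 0.24, 95% interval 1.77 to 2.82, limma adjusted p = 3.49e-05).

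FDPS and GGPS1 are the prenyltransferases at the end of the pathway. FDPS, which makes farnesyl diphosphate, had 197, 235, 132, 222 and 191 FPKM in the luteal ovaries and 37.8, 37.1, 31.9, 37.2 and 29.9 FPKM in the follicular ovaries, with no overlap. Its log2 fold change was 2.47 (SE 0.14, 95% interval 2.15 to 2.78, limma adjusted p = 4.34e-07), between means of 195 ± 39.7 and 34.8 ± 3.63 FPKM. GGPS1, which adds a further isoprene unit to give geranylgeranyl diphosphate, had 12.7, 13.9, 14.2, 14.5 and 14.2 FPKM in the luteal ovaries and 15.4, 15.5, 13.2, 14.0 and 14.3 FPKM in the follicular ovaries. The phases lay on top of each other, with means of 13.9 ± 0.726 and 14.5 ± 0.983 FPKM. The log2 fold change of GGPS1 was -0.06 (SE 0.07, limma adjusted p = 0.546), with a 95% interval of -0.21 to 0.10, and its sign turned under other scalings (0.03 with a common median, 0.04 on a TPM scale). The interval of GGPS1 lay wholly below the intervals of the other 6 genes.

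**Figure D1:**
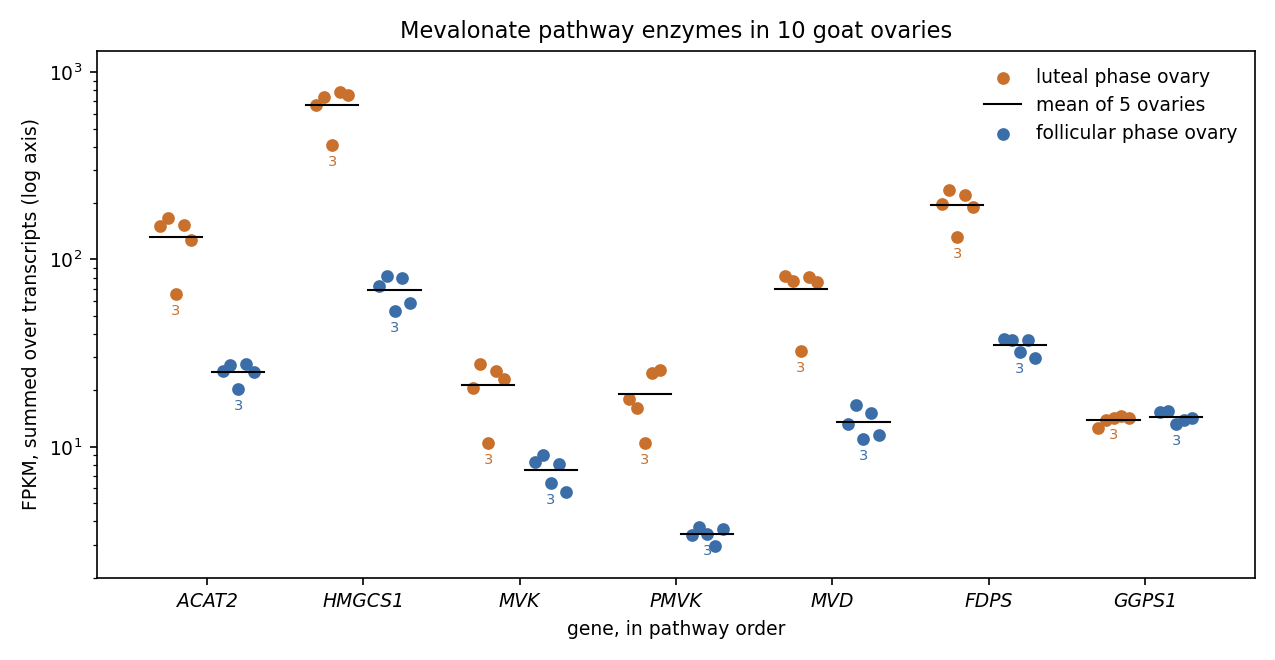
FPKM of the 7 enzyme genes (log axis) in each luteal (orange) and follicular (blue) ovary, in pathway order, with bars for the means of 5 ovaries and replicate 3 of each phase numbered. The phases are apart for ACAT2, HMGCS1, MVK, PMVK, MVD and FDPS and overlap for GGPS1, and luteal replicate 3 is the lowest luteal point of the first 6 genes.

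The order of the levels differed between the phases. FPKM is scaled by length, so levels were compared between genes. In the luteal phase the order of mean FPKM was HMGCS1, FDPS, ACAT2, MVD, MVK, PMVK and GGPS1. HMGCS1 was above FDPS and MVD above MVK without overlap of their ranges. FDPS was above ACAT2 and ACAT2 above MVD in 5 of 5 luteal ovaries, although their ranges overlapped. The last neighbours were not set apart by their spread, since MVK was above PMVK in 3 of 5 luteal ovaries and PMVK above GGPS1 in 4 of 5. In the follicular phase GGPS1 moved up to the fourth place, behind HMGCS1, FDPS and ACAT2, all of which kept 5 of 5 ovaries in this order with no overlap. GGPS1 was above MVD in only 3 of 5 follicular ovaries, while MVD was above MVK and MVK above PMVK in all 5 with no overlap.

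The makeup of the pathway, as each gene's percent of the summed FPKM of the 7, also differed. HMGCS1 took 57.9 to 62.3% in the luteal ovaries (mean 59.8 ± 1.79%) and 38.1 to 43.0% in the follicular ovaries (40.9 ± 2.13%). GGPS1 took 1.09 to 2.12% and 7.58 to 9.61%, respectively, and its highest luteal share was that of ovary 3. The mean shares of ACAT2 (11.6 and 15.0%), MVK (1.88 and 4.45%) and MVD (6.09 and 8.02%) were lower in the luteal phase without overlap. The phases overlapped in the shares of PMVK (1.68 and 2.08%) and FDPS (17.6 and 20.8%). These percents add up to a whole, so a larger share of HMGCS1 lowers the others.

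Ratios of consecutive enzymes do not add up to a whole. Each gene between ACAT2 and GGPS1 enters its ratios to both neighbours, so the ratios are not separate evidence. Consecutive here means among the 7 genes, and the reduction of HMG-CoA lies between HMGCS1 and MVK. The 6 ratios along the pathway were compared by a two-sided exact permutation test over the ovaries, whose smallest p with 5 ovaries against 5 is 0.00794, with adjustment over the 6. HMGCS1 was 26.5 to 38.9 times the level of MVK in the luteal ovaries and 8.28 to 10.2 times in the follicular ovaries (log2 difference 1.80, exact permutation p = 0.00794, adjusted p = 0.0159). The level of ACAT2 was 0.160 to 0.226 times that of HMGCS1 in the luteal phase and 0.335 to 0.427 times in the follicular phase (log2 difference -0.93, exact permutation p = 0.00794, adjusted p = 0.0159). The ratio of FDPS to GGPS1 was 9.28 to 16.9 in the luteal ovaries, against 2.09 to 2.67 in the follicular ovaries (log2 difference 2.53, exact permutation p = 0.00794, adjusted p = 0.0159). With GGPS1 nearly flat, this ratio restates the rise of FDPS. The luteal and follicular ranges of these 3 ratios did not overlap. MVK was 0.888 to 1.73 times PMVK in the luteal ovaries and 1.58 to 2.73 times in the follicular ovaries, which overlapped (log2 difference -0.94, exact permutation p = 0.0159, adjusted p = 0.0238). The ratio of PMVK to MVD was 0.208 to 0.341 and 0.196 to 0.315 (log2 difference 0.10, exact permutation p = 0.619, adjusted p = 0.619). That of MVD to FDPS was 0.246 to 0.414 and 0.344 to 0.449 (log2 difference -0.16, exact permutation p = 0.357, adjusted p = 0.429). A difference between the phases was not shown for these last ratios.

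Luteal ovary 3 was the lowest luteal ovary for 6 of the 7 genes, against 24.4% of all genes tested and 34.5% of the genes higher in the luteal phase. Relative to the mean of the other 4 luteal ovaries it held 43.6% of ACAT2, 55.3% of HMGCS1, 43.1% of MVK, 49.5% of PMVK, 41.1% of MVD, 62.6% of FDPS and 103% of GGPS1. The same ovary held 70.4% of the summed level of the enzymes from squalene to cholesterol, of which 11 of 12 were lowest there, and 79.0% of the summed corpus luteum markers, of which 3 of 6 were lowest there. STAR, which moves cholesterol into mitochondria, was at 74.5% and CYP11A1, the side-chain cleavage enzyme, at 78.8%. The luteinizing hormone receptor LHCGR was at 111%, the prostaglandin F receptor PTGFR at 95.1% and the prolactin receptor PRLR at 97.6%. Among other markers, the summed granulosa list was at 39.4%, the oocyte list at 190%, the stromal list at 133% and the endothelial list at 106%. The leukocyte list was at 94.1% and the theca list at 89.8%. The granulosa sums were 775, 235, 175, 284 and 484 FPKM in luteal ovaries 1 to 5, so that percent also depends on the high ovaries 1 and 5. The part of these differences in the level of the pathway was not tested. Without luteal ovary 3 the log2 fold changes were 2.57 for ACAT2, 3.43 for HMGCS1, 1.69 for MVK, 2.57 for PMVK, 2.55 for MVD, 2.60 for FDPS and -0.06 for GGPS1, with the same 6 genes called. The follicular ovary that carries the same number was the lowest follicular ovary for 4 of the 7 genes (ACAT2, HMGCS1, MVD and GGPS1), against 17.0% of all genes tested, and nothing in the labels ties equal numbers of the phases together.

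**Figure D2:**
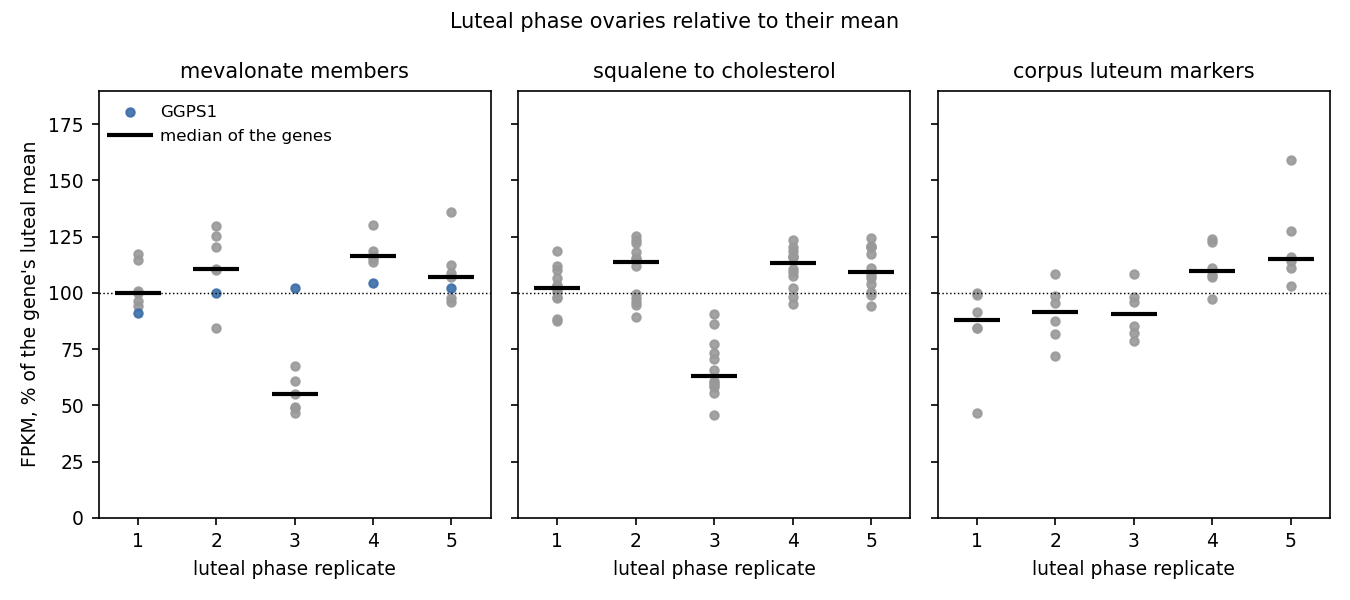
Level of each gene in each luteal ovary as percent of that gene's mean FPKM over the 5 luteal ovaries, for the 7 enzymes (GGPS1 in blue), the enzymes from squalene to cholesterol and the corpus luteum markers, with black bars at the median of each list. Replicate 3 is lowest for 6 of 7 genes in the first panel and for 11 of 12 in the second. It held 54.4% and 70.4% there of the mean summed level of the other 4 ovaries, and the markers in the third panel are spread around a summed 79.0%.

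The 14 transcripts of the 7 genes were compared in the same way over all 32842 transcripts tested. Of these transcripts 8 of 14 were higher in the luteal phase and none was called lower, against 7.47% of all transcripts tested that were higher. ACAT2, MVD and GGPS1 had 1 transcript each, so their values are those of the gene. PMVK had at least 87.1% of its level in XM_005677425.3 in every ovary (log2 fold change 2.37, limma adjusted p = 0.000143). Its other transcript, XM_018046205.1, stayed at or below 0.623 FPKM in every ovary, was listed at 0 in 3 follicular ovaries and was not called (limma adjusted p = 0.0533, and 0.0450 with a common median).

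Both transcripts of HMGCS1 were higher in the luteal phase. XM_005694739.3 had 638, 703, 386, 738 and 715 FPKM in the luteal ovaries and 66.0, 74.4, 48.1, 71.9 and 53.4 FPKM in the follicular ovaries (log2 fold change 3.32, SE 0.19, limma adjusted p = 3.88e-06). XM_005694740.3 had 33.7, 34.8, 21.0, 42.6 and 39.1 FPKM in the luteal ovaries and 6.08, 7.54, 4.90, 7.34 and 5.11 FPKM in the follicular ovaries (log2 fold change 2.43, SE 0.20, limma adjusted p = 4.23e-05). The major transcript made up 94.5 to 95.3% of the gene's level in luteal ovaries, against 90.7 to 91.6% in follicular ovaries. These shares did not overlap, which held for 3.65% of the 14978 isoform shares tested. The difference of 3.87 percentage points was not called over all shares (SE 1.39, limma adjusted p = 0.348), nor was the log2 ratio of the transcripts (difference 0.89, SE 0.17, limma adjusted p = 0.0819). Across the 7 genes 0 of 8 tested isoform shares were called by limma, against 0.521% of all shares, while 1657 of all 14978 shares had an unadjusted p under 0.05.

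FDPS had 4 transcripts, of which 3 were called higher in the luteal phase, and none of the 3 shares tested differed past the threshold between the phases. XM_005677386.3 had 110, 122, 47.5, 116 and 113 FPKM in the luteal ovaries and 15.8, 16.1, 4.37, 15.6 and 4.75 FPKM in the follicular ovaries (log2 fold change 3.31, SE 0.45, limma adjusted p = 0.000896). XM_005677388.3 had 24.0, 27.5, 47.8, 24.2 and 20.9 FPKM in the luteal ovaries and 9.47, 11.3, 22.9, 11.4 and 21.6 FPKM in the follicular ovaries, which overlapped, and it was not called (log2 fold change 0.94, SE 0.30, limma adjusted p = 0.0552), although a common median brought it past the threshold (limma adjusted p = 0.0353). Luteal ovary 3 was thus the lowest luteal ovary for the former and the highest for the latter. XM_005677389.2 (33.5 to 79.0 against 2.79 to 12.5 FPKM, log2 fold change 3.06, limma adjusted p = 0.000647) and the scarce XM_005677390.3 (3.36 to 9.52 against 0 to 1.45 FPKM, log2 fold change 3.87, limma adjusted p = 0.00788) were higher in the luteal phase. As a share of the gene, XM_005677388.3 made up 12.2, 11.7, 36.2, 10.9 and 11.0% in the luteal ovaries and 25.1, 30.3, 71.8, 30.7 and 72.3% in the follicular ovaries. The lower luteal share, by 29.7 percentage points, had a limma adjusted p of 0.351 over all shares and an exact permutation p of 0.0317. Within each phase, the ovaries with the highest share of this transcript had the lowest of XM_005677386.3, namely luteal ovary 3 and follicular ovaries 3 and 5.

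MVK was the member whose transcripts varied most between ovaries of a phase. XM_005691582.3 made up 14.8, 18.7, 96.2, 94.5 and 1.46% of the gene in the luteal ovaries and 11.1, 9.75, 99.7, 85.0 and 40.0% in the follicular ovaries. Ovaries 3 and 4 of either phase thus held at least 85.0% of the level in this transcript, and the others at most 40.0%. The other transcripts, XM_005691583.3 and XM_018061103.1, shared the rest, and the last of them was listed at 0 in luteal ovaries 3 and 4 and in follicular ovary 3. None of the 3 was called between the phases (limma adjusted p = 0.634 for XM_005691582.3, 0.220 for XM_005691583.3 and 0.979 for XM_018061103.1), although their sum was. With only the most abundant transcript in place of the sum, the log2 fold change of MVK was 0.81 (SE 1.01, limma adjusted p = 0.567), so the call for this gene rests on the sum. How FPKM were divided between the overlapping transcripts of a gene was set by the authors' quantification, and the part of that division in these shares was not tested.

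**Figure D3:**
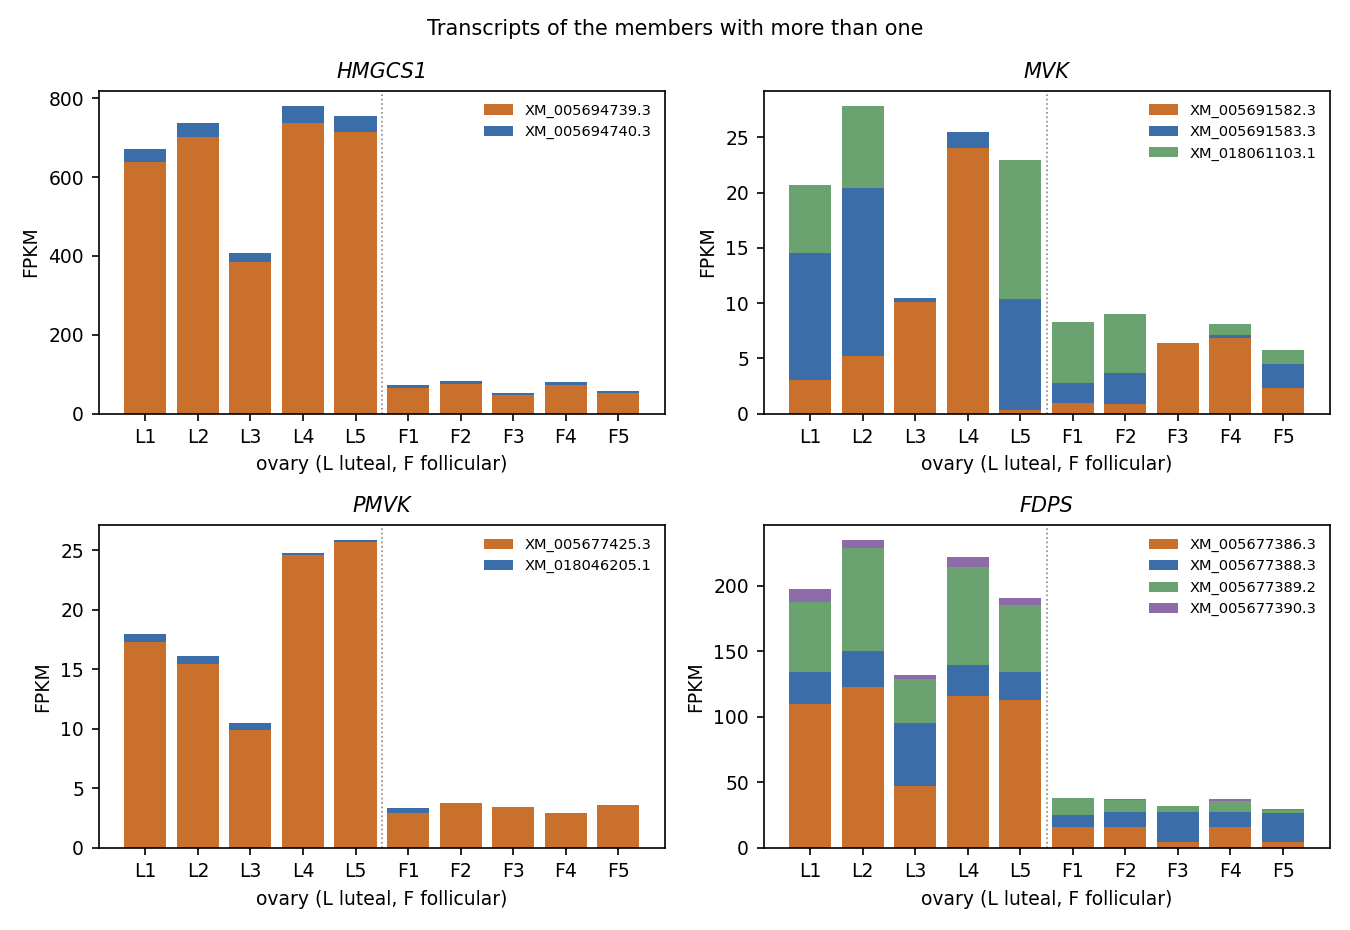
FPKM of the transcripts of HMGCS1, MVK, PMVK and FDPS, stacked for luteal ovaries 1 to 5 (L) and follicular ovaries 1 to 5 (F). The major transcript of HMGCS1 holds at least 90.7% of the bar in every ovary, whereas the leading transcript of MVK changes between ovaries of the same phase.

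The genes around the pathway were taken from lists, and those of acetyl-CoA supply, the route to cholesterol, the other branches and sterol sensing are described by counts and by a median log2 fold change, which was -0.14 over all genes tested. Of the 7 listed genes that supply acetyl-CoA, 5 were higher in the luteal phase, 1 was lower and 1 was not called (median 0.77), where 15.9% of all genes tested were higher and 27.8% lower. ACSS2, which makes cytosolic acetyl-CoA from acetate, rose from 12.0 ± 2.44 to 97.1 ± 27.8 FPKM (log2 fold change 2.98, SE 0.21, limma adjusted p = 1.82e-06). ACLY, the ATP citrate lyase, had a log2 fold change of 1.69 (SE 0.17, limma adjusted p = 3.36e-05), and ME1, the NADPH-yielding malic enzyme, one of 0.88 (SE 0.08, limma adjusted p = 1.10e-05). The gene that was lower was ACSS1, the mitochondrial acetyl-CoA synthetase, at 8.72 ± 1.11 against 12.9 ± 1.41 FPKM (log2 fold change -0.56, SE 0.11, limma adjusted p = 0.00168).

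Downstream of farnesyl diphosphate the route to cholesterol and the other branches differed in their counts. Of the 12 enzymes from squalene to cholesterol 11 were higher and 1 was lower (median 2.26), against 15.9% and 27.8% of all genes tested. FDFT1, the squalene synthase that takes farnesyl diphosphate into this route, rose from 30.2 ± 3.53 to 119 ± 30.6 FPKM (log2 fold change 1.93, SE 0.18, limma adjusted p = 1.55e-05). The largest log2 fold changes were those of TM7SF2, a sterol C14 reductase (4.67 ± 0.808 to 103 ± 24.5 FPKM, log2 fold change 4.42, SE 0.19, limma adjusted p = 3.74e-08), and MSMO1, the methylsterol monooxygenase (3.52, SE 0.15, limma adjusted p = 3.64e-08). DHCR7, the dehydrocholesterol reductase of the last steps, followed (3.38, SE 0.19, limma adjusted p = 3.63e-07), and the next gene of the list lay within its SE. The exception was LBR, the lamin B receptor that carries the same C14 reductase activity as TM7SF2, at 35.3 ± 5.36 against 48.0 ± 4.50 FPKM (log2 fold change -0.45, SE 0.10, limma adjusted p = 0.00502).

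Of the 15 genes of the dolichol, ubiquinone and prenylation branches, 1 was higher, 2 were lower and 12 were not called (median 0.07), against 15.9% higher and 27.8% lower among all genes tested. PDSS1, a subunit of the prenyl synthase for the ubiquinone tail, was lower at 5.61 ± 0.485 against 9.24 ± 1.32 FPKM (log2 fold change -0.70, SE 0.11, limma adjusted p = 0.000548). FNTA, an alpha subunit of protein prenyltransferases, was lower at 47.2 ± 4.14 against 57.4 ± 3.93 FPKM (log2 fold change -0.28, limma adjusted p = 0.0105), a call that was lost with a common median (0.116) and on a TPM scale (0.0644). The higher gene was ZMPSTE24, the protease that trims farnesylated proteins (log2 fold change 0.28, limma adjusted p = 0.0404), and this call was lost when any of 8 of the 10 ovaries was left out. DHDDS, a subunit of the dolichol-forming prenyltransferase (3.90 ± 0.340 against 3.65 ± 0.441 FPKM, limma adjusted p = 0.508), and PGGT1B, a subunit of the enzyme that geranylgeranylates proteins (13.1 ± 0.759 against 12.0 ± 1.32 FPKM, limma adjusted p = 0.220), were not called.

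Among 19 genes of sterol sensing and uptake 8 were higher, 2 were lower and 9 were not called (median 0.16), against 15.9% higher and 27.8% lower among all genes tested. The number called higher was 6 to 9 under the alternatives. SCARB1, the high-density lipoprotein receptor, rose from 9.73 ± 1.28 to 159.6 ± 28.5 FPKM (log2 fold change 4.01, SE 0.12, limma adjusted p = 2.29e-09). This gene was also counted among the corpus luteum markers above. STARD4, a cytosolic sterol carrier, rose from 15.8 ± 1.14 to 69.9 ± 15.4 FPKM (log2 fold change 2.11, SE 0.15, limma adjusted p = 2.34e-06). SREBF2, which encodes SREBP2, had a log2 fold change of 0.45 (limma adjusted p = 0.0145), its paralog SREBF1 one of -0.43 that was not called (limma adjusted p = 0.0900, but 0.0301 without luteal replicate 1 and 0.0439 without follicular replicate 4), and INSIG1, a sterol-regulated retention factor of the SREBP system, one of 1.88 (limma adjusted p = 0.000352). These 3 genes were named after their values were seen.

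**Figure D4:**
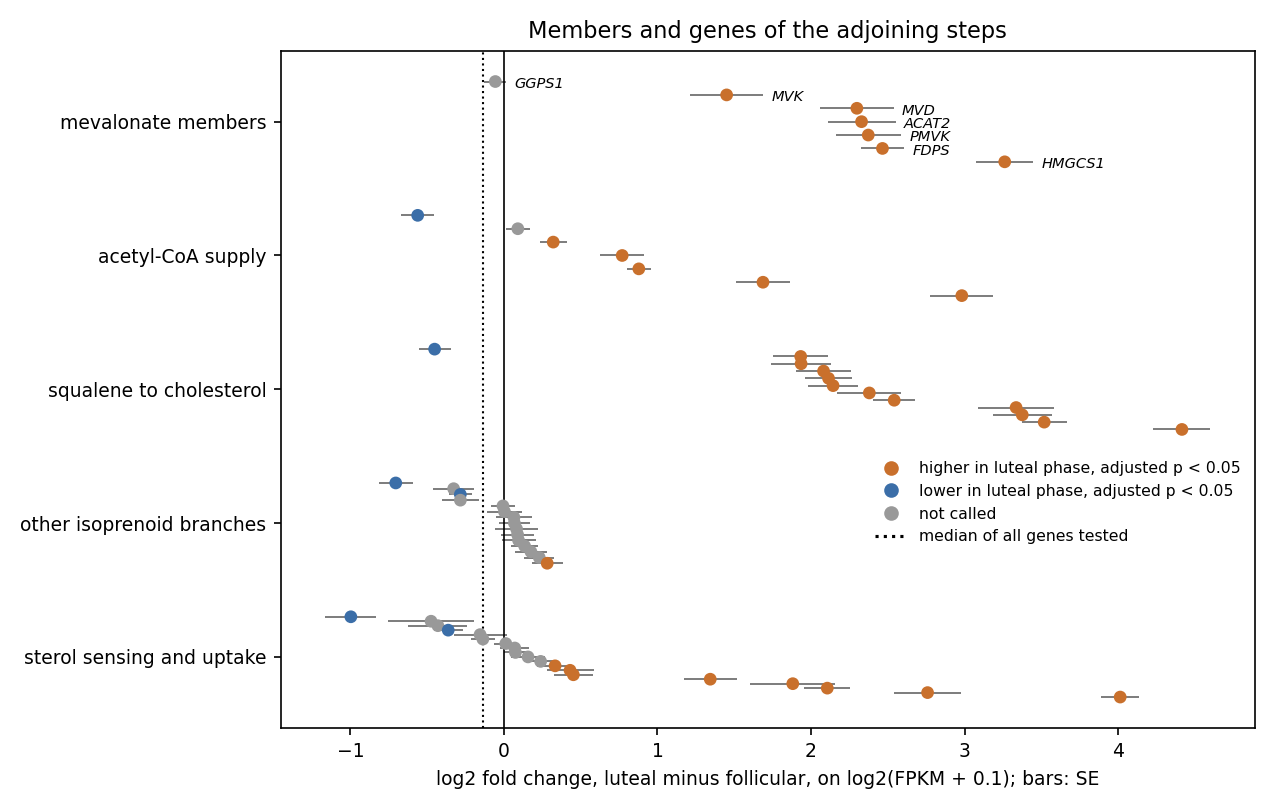
Log2 fold change of FPKM, luteal minus follicular, with its standard error for the 7 enzymes and for genes of acetyl-CoA supply, the route from squalene to cholesterol, the other isoprenoid branches, and sterol sensing and uptake. Orange points are higher, blue points lower and grey points not called in the luteal phase, and the dotted line is the median of all genes tested (-0.14). Enzymes up to FDPS and those from squalene to cholesterol lie mostly between about the level of MVK (1.45) and that of TM7SF2 (4.42), and GGPS1 (-0.06) lies within the range of the grey points of the other branches.

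For each enzyme the genes with the most similar profile over the 10 ovaries were taken by the root-mean-square distance between log2 profiles centred on their means, where 0 is an identical profile. The phase difference dominates this distance, and the points share their libraries. ACAT2 and MVD were each other's nearest of all genes tested, at 0.12. Members and genes whose symbol begins with LOC were left out of the following. The nearest to ACAT2 were EBP, a sterol isomerase (0.19), and SCGB3A2 (0.19). For HMGCS1 they were MSMO1 (0.17) and RHBDL2 (0.23), for MVK PCYT2 (0.17) and FADS2, a fatty acid desaturase (0.19), and for PMVK the kinase PIM2 (0.14) and SC5D, a sterol desaturase (0.21). The nearest to MVD was SQLE, the squalene epoxidase (0.17, rank 3 of all genes tested), and the nearest to FDPS was NSDHL, a sterol dehydrogenase (0.08). Genes of cholesterol synthesis thus stood among the nearest of 5 of the 7 enzymes (ACAT2, HMGCS1, PMVK, MVD and FDPS). GGPS1 was nearest to ARF1 (0.05) and NUP58 (0.05), and its profile was nearly flat over the 10 ovaries.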

How the data were processed

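Strand-specific, paired-end libraries were made from rRNA-depleted total RNA, 1 per ovary. The authors used HISAT2 for alignment, StringTie for assembly and Cuffdiff for the deposited FPKM of each transcript in each ovary, and pooled no ovaries. The genome build is not given in the sources used here. Counts were not used here, so the depth per ovary is unknown and the 10 ovaries' spread is the only measure of precision. Protein-coding FPKM were summed by symbol and taken as log2(FPKM + 0.1), which understates the change of low genes. limma 3.58.1 (lmFit, eBayes with trend) in R 4.3.3 was used, tested on simulated data. Isoform shares (no trend) needed a second coding transcript, a gene sum of at least 1 FPKM in every ovary and a mean share of 5 to 95%. The rest was done in Python 3.11.15 (scipy 1.17.1, numpy 2.4.6, pandas 2.3.3, matplotlib 3.10.9).

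The members and lists were chosen with earlier results of these data known. Named are the 7 genes, their transcripts, per list up to 3 called genes of the largest fold change without overlap, the genes acting on the product of the last steps, and the 2 nearest profiles per gene, with members and LOC symbols left out. ACSS1, LBR and ZMPSTE24, each alone in its direction in its list, were named outside this rule after their values were seen. Some genes this rule would name are not reported here, although the counts include them. CYP11A1 was found under another symbol through RefSeq synonyms. The ratios of consecutive enzymes were added after the data were seen. The deposited lncRNA and mRNA tables were not used. As alternatives, the pseudocount was set to 0.01 or 1, the filter was dropped or raised to 0.5 FPKM, and the fits were repeated with a common median, quantile normalization, a TPM scale, an adjusted p under 0.01, the most abundant transcript, a replicate block, and leaving out each ovary.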

Additional observations from a re-analysis of the deposited data

Results flagged for a closer look

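Of 36 sets of 5 ovaries, 5 held an ovary that stood apart by Dixon's ratio (gap to the nearest ovary over the range, above 0.71), and chance gives about 5% of sets. The sets share libraries, and genes stand beside their own transcripts, so the sets are not independent and this rate is only a guide. Luteal replicate 3 stood apart in 4 of the 5 flagged sets. MVD was at 32.5 FPKM in that ovary against 75.9 to 81.7 FPKM in the other luteal ovaries. The major HMGCS1 transcript XM_005694739.3 was at 386 against 638 to 738 FPKM. Of the FDPS transcripts, XM_005677386.3 was low at 47.5 against 110 to 122 FPKM and XM_005677388.3 was high at 47.8 against 20.9 to 27.5 FPKM. The PMVK transcript XM_018046205.1 was at 0.434 FPKM in follicular replicate 1 and at 0 to 0.0179 FPKM in the other follicular ovaries.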

How the results depend on the processing

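Over the 7 genes and their alternatives, 139 of 140 fold changes kept their direction and side of the threshold, where the sign of GGPS1 was not counted since it was not called. The exception was MVK by its most abundant transcript (0.81, adjusted p = 0.567), which left 5 genes called in place of 6, and the cause was not tested. The log2 fold change ran from 2.23 to 2.57 for ACAT2, 3.17 to 3.43 for HMGCS1, 0.81 to 1.69 for MVK, 2.12 to 2.57 for PMVK, 2.22 to 2.55 for MVD, 2.39 to 3.31 for FDPS and -0.09 to 0.04 for GGPS1. Called member transcripts numbered 8 to 11, and isoform shares 0 in each setting. The isoprenoid branch genes higher in the luteal phase were 2 under each of the other 3 scalings. Leaving out 1 ovary gave 0 to 2. A replicate block gave 6 genes, 11 transcripts and 0 shares called, where the added transcripts were XM_005691583.3 of MVK (adjusted p = 0.00154), XM_018046205.1 of PMVK (0.0424) and XM_005677388.3 of FDPS (0.0366). Over all genes tested, deviations of equal numbers correlated weakly (0.03 to 0.20, all positive), and 2 of 5 luteal ovaries matched their own number best. The MVK transcript shares were nevertheless alike in ovaries 3 and 4 of either phase. Whether equal numbers share a batch was not tested. FPKM hold no depth, so counting error is unknown. Low transcripts are limited by this most, and a listed 0 is not proof of absence.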

Other observations

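Genes next to the 7 in the goat RefSeq annotation (assembly ARS1.2) were compared between the phases in the same fit. Of 13 such genes tested, 5 were higher in the luteal phase, 1 was lower and 7 were not called, against 43.7% of all genes tested that were called. The higher genes include LOC102188617 beside MVD (log2 fold change 0.43, limma adjusted p = 0.0123). Beside HMGCS1, the chemokine gene CCL28 was higher in the luteal phase, at 1.44 ± 0.574 against 0.142 ± 0.105 FPKM (log2 fold change 2.70, SE 0.36, limma adjusted p = 0.000185). Beside MVK, FAM222A was higher, at 1.42 ± 0.452 against 0.359 ± 0.0457 FPKM (log2 fold change 1.69, limma adjusted p = 0.000102). On the other side of MVK, MMAB, a cobalamin adenosyltransferase, was at 19.5 ± 3.71 against 14.5 ± 1.49 FPKM (log2 fold change 0.41, limma adjusted p = 0.0225), a call lost without follicular replicate 1 (0.0545) or follicular replicate 3 (0.0541). Beside GGPS1, which was not called, the tubulin cofactor gene TBCE was higher (29.3 ± 4.08 against 19.7 ± 3.23 FPKM, log2 fold change 0.57, limma adjusted p = 0.00403). TCP1, which overlaps ACAT2, was at 111 ± 12.9 against 138.5 ± 21.3 FPKM (log2 fold change -0.32, limma adjusted p = 0.0449). This call for TCP1 was lost with a common median (0.200), on a TPM scale (0.102) and without any of 7 of the 10 ovaries.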
